A study of Bos taurus with 11 samples.

Results

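The genes described here are 10 regulators of the G1 phase of the cell cycle, measured in the mammary parenchyma of young heifer calves. They are the D-type cyclin genes CCND1, CCND2 and CCND3, the E-type cyclin genes CCNE1 and CCNE2, the genes of the cyclin-dependent kinase (CDK) inhibitors CDKN1A, CDKN1B and CDKN2C, and the transcription factor genes MYC and E2F1. They were chosen by symbol: a probe set had to be annotated to exactly 1 of these symbols, and the brightest on average was kept. All 10 genes were found, each with 1 probe set, among 18444 genes and 26773 probe sets on the array. No filter on low values was applied, so all 10 entered the tests.

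Female Holstein calves were fed a restricted (5 calves) or an elevated (6 calves) amount of milk replacer from birth until slaughter at 54 ± 2 days. Per the labels, the restricted diet supplied 2.8 ± 0.2 (SE) Mcal of metabolisable energy a day as 4 L in 2 meals. The elevated diet supplied 5.9 ± 0.2 (SE) Mcal a day as 8.4 L in 3 meals, so the amount and the number of meals cannot be told apart. Both groups were offered starter grain from day 18. The parenchyma of a further restricted calf was too small to be dissected out and was not sampled, so that gland is missing from the restricted group. Calf numbers below are those of the labels.

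G1 is the stretch of the cell cycle in which a cell either commits to copying its DNA or withdraws from division. Mitogens and nutrients raise the D-type cyclins, which with CDK4 and CDK6 begin to phosphorylate the retinoblastoma protein. This frees E2F factors, which switch on the E-type cyclins and the genes of DNA synthesis, and cyclin E with CDK2 completes the step. Inhibitors of the INK4 family, such as the product of CDKN2C, bind CDK4 and CDK6, whereas those of the CIP/KIP family, such as the products of CDKN1A and CDKN1B, act on cyclin E and CDK2. In the mammary gland, cyclin D1 is known from mice for its part in the growth of the lobules. Much of this control works through protein turnover and phosphorylation, which an RNA array does not read.

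The values are log2 levels from RMA, a method that summarises the probes of a probe set and gives all arrays nearly the same distribution. A gap of 1 is a 2-fold difference in signal. Correlations between arrays ran from 0.964 to 0.990, and no arrays held identical values. Of the calves, 3 stood apart at mitosis genes or tissue markers. A further calf, restricted 3, was highest of all calves at 4 of the 10 G1 genes, against 8.91% of all probe sets. These were CCNE1, CCNE2, CDKN1A and MYC, and this calf was left out only singly. Elevated 5 had the lowest value of all calves at 24 of 24 mitosis genes, against 14.9% of all probe sets. Restricted 2 had the lowest value at 20 of 20 luminal epithelial markers and the highest at 16 of 16 adipocyte markers. Restricted 4 was next to it in both lists, with an adipocyte mean of 9.44 and a luminal mean of 8.20, against at most 8.38 and at least 8.71 in the 9 calves other than these 2. The tissue label was met in most arrays: the epithelial marker EPCAM lay between 8.14 and 9.83 in 10 calves, but at 5.98 in restricted 2. The adipocyte marker ADIPOQ ran from 8.94 to 11.94, so adipocyte RNA was read in every sample. Of further markers, the luminal keratin KRT18 differed between the diets by 1.00 ± 0.40 (SE) and the muscle actin ACTA1 by 1.22, elevated minus restricted, whereas LEP, the leptin gene of fat, differed by -1.65. The basal keratin KRT5 (0.20), the leukocyte gene PTPRC (0.22), the T cell gene CD3E (-0.13) and the endothelial gene PECAM1 (0.033) differed less, with a direction that turned for KRT5 without restricted 2 (-0.36) and for PECAM1 without elevated 5 (-0.15). Without restricted 2, KRT18 differed by 0.62 and CD3E by -0.39. Without elevated 5, PTPRC differed by 0.37. None of these markers passed the test described next. In bulk tissue, fewer cells of a type and less RNA per cell cannot be told apart.

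Between the diets, 0 of the 10 G1 genes passed limma at an adjusted p under 0.05, where 2 of all 26773 probe sets (0.00747%) did. At an unadjusted p under 0.05 there were 2 of 10, against 10.3% of all probe sets. They were CDKN1B, higher in elevated calves as 4.95% of all probe sets were, and CDKN2C, lower as 5.33% were. This count depended on single calves: without restricted 2 it was 1 of 10 (9.07% of all probe sets), without restricted 2 and restricted 4 it was 0 of 10 (8.72%), and without all 3 calves that stood apart 2 of 10 (9.19%). Without elevated 5 it was 2 of 10 (9.7%), both lower, namely CCNE1 and CDKN2C, and CDKN1B was no longer among them. CDKN2C was the 1 gene of the 10 whose groups did not overlap, which held for 1.28% of all probe sets. Means were higher in elevated calves for 4 of the 10 and lower for 6, beside 50.8% higher among all probe sets. The median log2 difference of the 10 was -0.065 and that of all probe sets 0.0031. The count of passing genes was also 0 of 10 without elevated 5 (0.0112% of all probe sets passed), without restricted 2 (0.0299%), without restricted 2 and restricted 4 (0.0934%) and without all 3 (0.056%).

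**Figure D1:**
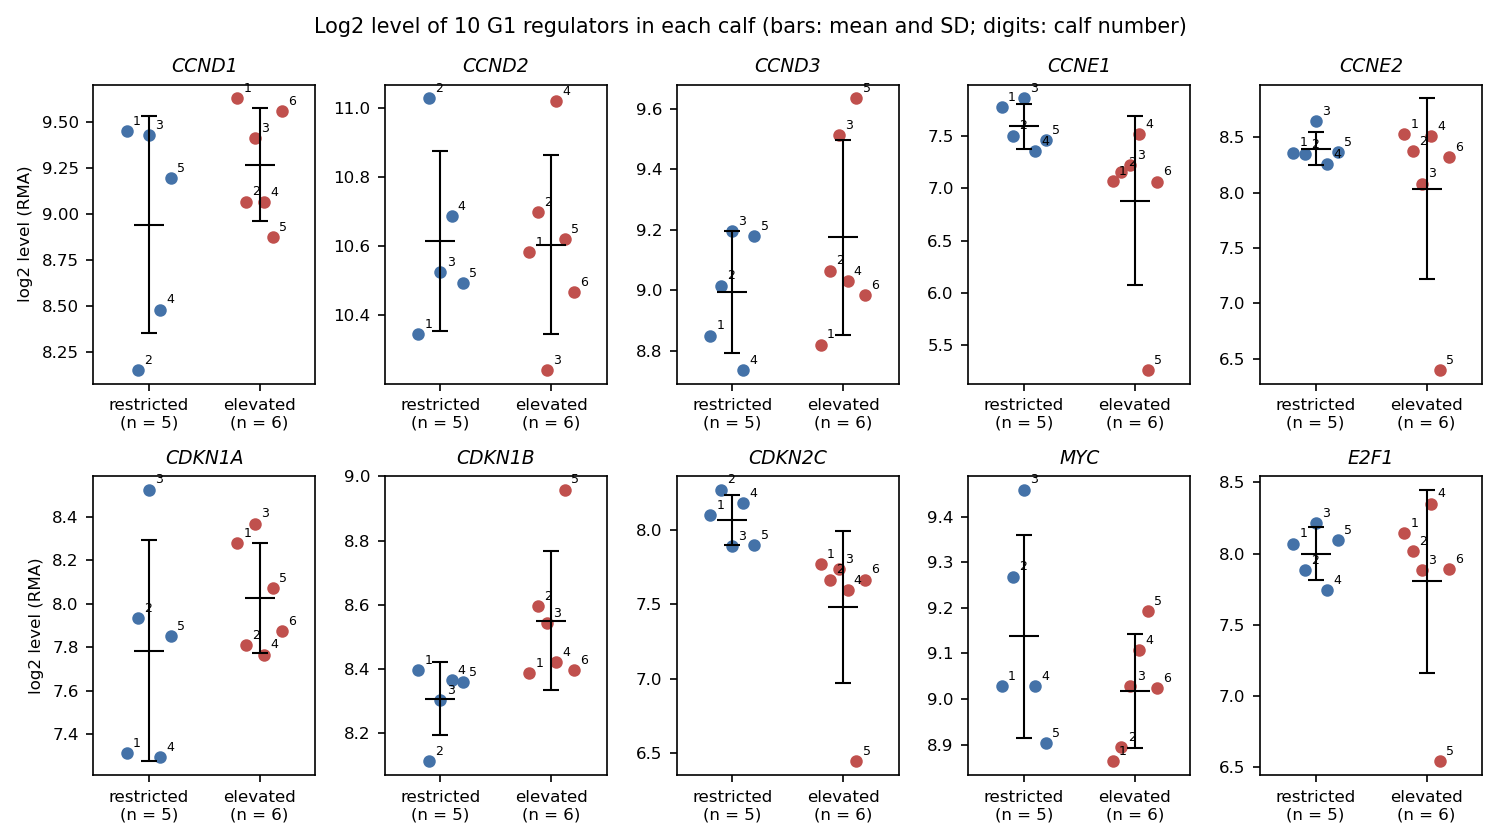
Log2 level (RMA, vertical axis, a separate range in each panel) of the 10 genes in 5 restricted (blue) and 6 elevated (red) calves. Each point is 1 calf with its number, and bars are the mean and SD; CDKN2C is the panel in which all elevated calves lie below all restricted calves, and elevated 5 sits far below the rest for CCNE1, CCNE2, CDKN2C and E2F1.

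The inhibitor gene CDKN2C, which encodes p18, an INK4 protein that binds CDK4 and CDK6, had the lowest unadjusted p of the 10. Its log2 levels in restricted calves 1 to 5 were 8.10, 8.27, 7.89, 8.18 and 7.90. In elevated calves the lowest was 6.44 (elevated 5), the median 7.67 and the highest 7.77. All elevated values lay below all restricted ones, and 5 of the 6 elevated calves sat within 0.17 of each other. The gap between the lowest restricted and the highest elevated calf was 0.12. The elevated mean was 7.48 ± 0.51 (SD, n = 6) and the restricted mean 8.07 ± 0.17 (SD, n = 5). The log2 difference, elevated minus restricted, was -0.59 ± 0.22 (SE; 95% interval -1.07 to -0.11; limma adjusted p = 0.410), or 1.50-fold higher in restricted calves. The exact two-sided permutation test over the 462 splits of the calves gave an unadjusted p of 0.00433. The same test gave 0.0238 for CDKN1B, 0.0281 for CCNE1 and from 0.277 (MYC) to 0.937 (CCND2) for the remaining genes. It was not run over all probe sets, so no share of probe sets at these p-values is given. For CDKN2C, groups without overlap are already the most extreme split in their direction. Its permutation p thus restates the lack of overlap, which held for 1.28% of all probe sets. Part of the size came from elevated 5: without it the difference was -0.38 ± 0.09 (SE; limma adjusted p = 0.287), still with no overlap, where 1.79% of all probe sets had none. Without restricted 2 and restricted 4, its highest calves, it was -0.48 (limma adjusted p = 0.663), again with no overlap, beside 5.46% of all probe sets.

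The inhibitor gene CDKN1B encodes p27, which holds cyclin E and CDK2 inactive in resting cells. It ran the opposite way to CDKN2C. Restricted calves 1 to 5 had 8.40, 8.11, 8.30, 8.37 and 8.36, and elevated calves a lowest of 8.39, a median of 8.48 and a highest of 8.96. The highest value was that of elevated 5, and the lowest elevated calf lay just under the highest restricted one, so the overlap was narrow. Elevated minus restricted, CDKN1B differed by 0.24 ± 0.11 (SE; 95% interval 0.0038 to 0.48; limma adjusted p = 0.480), and without elevated 5 it was 0.16 ± 0.08 (SE; limma adjusted p = 0.544).

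The inhibitor gene CDKN1A encodes p21, best known as a target of p53. It varied more among restricted than among elevated calves. Restricted calves had 7.31, 7.94, 8.53, 7.29 and 7.85 in the order of their numbers. Elevated calves ran from 7.77 over a median of 7.97 to 8.37, wholly inside the span of the restricted calves. CDKN1A differed by 0.24 ± 0.22 (SE; 95% interval -0.23 to 0.72; limma adjusted p = 0.736). Restricted 3 was the highest and restricted 4 the lowest of all 11 calves, and leaving these out in turn moved the difference to 0.43 and 0.12, as leaving out restricted 1 moved it to 0.13.

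The cyclin gene CCNE1 had the largest mean difference of the 10. Cyclin E1 drives CDK2 at the start of DNA synthesis. Restricted calves 1 to 5 had 7.78, 7.50, 7.86, 7.35 and 7.46. In elevated calves the lowest was 5.26, the median 7.11 and the highest 7.52. Of the elevated calves, 5 lay below the lowest restricted calf and elevated 4 lay above 3 restricted calves. The log2 difference was -0.71 ± 0.34 (SE; 95% interval -1.45 to 0.032; limma adjusted p = 0.507; exact permutation p = 0.0281, unadjusted). Without elevated 5, which held the lowest value, it was -0.38 ± 0.12 (SE; limma adjusted p = 0.410).

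CCNE2, the gene of the second E-type cyclin, showed no such shift outside elevated 5. Restricted calves had 8.36, 8.35, 8.65, 8.26 and 8.37, and the median of the elevated calves was 8.35, with a lowest of 6.40 and a highest of 8.53. CCNE2 differed by -0.36 ± 0.34 (SE; 95% interval -1.10 to 0.37; limma adjusted p = 0.751). Without elevated 5 it was -0.034 ± 0.106 (SE; 95% interval -0.27 to 0.20). Whether CCNE1 and CCNE2 differed in their response was not tested.

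E2F1, the transcription factor gene that is both an activator of the S-phase programme and one of its targets, likewise depended on elevated 5. Restricted calves had 8.07, 7.88, 8.21, 7.74 and 8.09. Elevated calves ran from 6.54 over a median of 7.96 to 8.35. E2F1 differed by -0.19 ± 0.27 (SE; 95% interval -0.79 to 0.40; limma adjusted p = 0.838), and without elevated 5 it turned to 0.058 ± 0.118 (SE; 95% interval -0.20 to 0.32). Without elevated 4, the highest calf, it was -0.30.

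**Figure D2:**
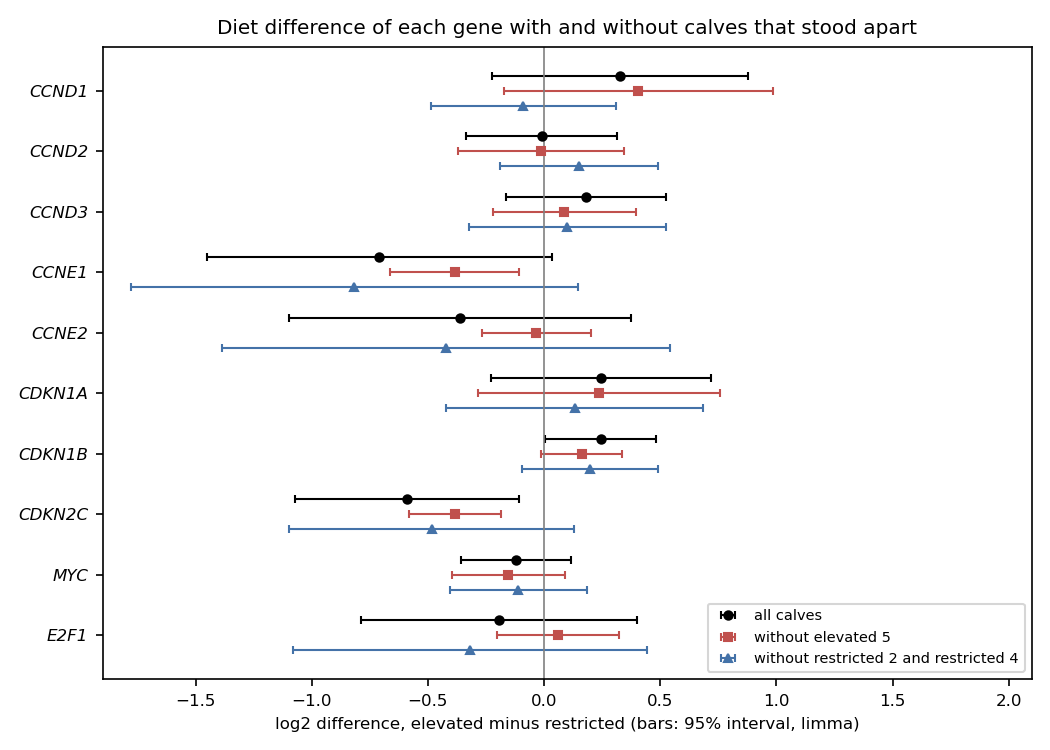
Log2 difference, elevated minus restricted, of each gene (horizontal axis) with its 95% interval from limma. Black circles use all 11 calves, red squares leave out elevated 5 and blue triangles leave out restricted 2 and restricted 4. The intervals of CCNE1, CCNE2, CDKN2C and E2F1 narrow without elevated 5, and CCND1 moves from 0.33 to -0.091 without the 2 restricted calves.

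The D-type cyclins, which link growth signals to CDK4 and CDK6, gave diet differences from -0.011 (CCND2) to 0.33 (CCND1), none past the threshold. CCND1 stood at 9.45, 8.15, 9.43, 8.48 and 9.20 in restricted calves 1 to 5 and at 8.87 to 9.63, with a median of 9.24, in elevated calves. Restricted 2 and restricted 4 were lower than any elevated calf, and the other restricted calves lay among the elevated ones. The log2 difference was 0.33 ± 0.25 (SE; 95% interval -0.22 to 0.88; limma adjusted p = 0.690). It was 0.13 without restricted 2, 0.21 without restricted 4 and -0.091 without restricted 2 and restricted 4.

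CCND2, the gene of cyclin D2, differed by -0.011 ± 0.149 (SE; 95% interval -0.34 to 0.32; limma adjusted p = 0.985). Restricted calves had 10.35, 11.03, 10.52, 10.69 and 10.49, and elevated calves ran from 10.24 over a median of 10.60 to 11.02. The highest calves were restricted 2 and elevated 4, on opposite diets. CCND3, the gene of cyclin D3, stood at 8.85, 9.02, 9.20, 8.74 and 9.18 in restricted calves and ran from 8.82 over a median of 9.05 to 9.64 in elevated calves. Its log2 difference was 0.18 ± 0.16 (SE; 95% interval -0.17 to 0.52; limma adjusted p = 0.734), with 0.087 without elevated 5, the highest calf, and 0.11 without elevated 3 or restricted 4.

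MYC, a transcription factor gene that drives growth and raises cyclin levels, had the narrowest spread among elevated calves, 9.02 ± 0.12 (SD, n = 6). They ran from 8.86 over a median of 9.03 to 9.19. Restricted calves had 9.03, 9.27, 9.46, 9.03 and 8.90, with restricted 3 the highest of all. MYC differed by -0.12 ± 0.11 (SE; 95% interval -0.36 to 0.12; limma adjusted p = 0.744). Without restricted 3 it was -0.039. Within the interval over all calves MYC could be up to 0.36 lower or 0.12 higher in elevated calves.

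Elevated 5 stood further from the other calves at CCNE1, CCNE2, E2F1 and CDKN2C than the diet means stood from each other. Against the median of the other 10 calves it was lower by a factor of 4.42 for CCNE1, 3.90 for CCNE2, 2.83 for E2F1 and 2.61 for CDKN2C, and lowest of all calves at each. It was highest of all calves at CCND3, 1.53-fold above the others' median, and at CDKN1B, 1.48-fold above. CCND1, CCND2, CDKN1A and MYC of this calf lay within the range of the others. So 4 of the 10 genes had their lowest and 2 their highest value in this calf, against 14.9% and 16.9% of all probe sets.

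The same array was low along most of the E2F branch. It held the lowest value at 15 of 16 genes under E2F control, such as RRM2, a subunit of ribonucleotide reductase (5.38 against 8.08 to 8.92), and CCNA2, the S-phase cyclin gene (5.48 against 7.96 to 8.66). It held the lowest value at 7 of 8 other E2F and DP factor genes, such as E2F3 (6.18 against 7.89 to 8.43) and E2F8 (4.88 against 6.76 to 7.57). The phosphatase gene CDC25A, which activates CDK2, stood at 5.19 against 6.37 to 6.96. CDK2 and CDK4 were also lowest in this calf, and CDK6 lay within the others. The pocket protein genes RB1 (10.62 against 10.04 to 10.38) and RBL2 (8.77 against 8.13 to 8.37), whose products restrain E2F, were highest in it. The proliferation marker MKI67 stood at 6.13, against 8.58 to 9.35 in the others.

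Markers of other cells also moved in elevated 5. It was highest at 12 of 13 skeletal muscle markers and 7 of 10 endothelial markers, with ACTA1 at 8.93 and PECAM1 at 10.88, and lowest at 6 of 11 macrophage markers. It was highest at 0 of the 20 luminal markers, and it could be lowest at none, since restricted 2 was lowest at all 20. Against the median of the other calves, its luminal markers ran from -1.67 to 0.44, with a median of -0.061. Its luminal mean was 8.87, within the 8.71 to 9.59 of the other elevated calves. Of 9 basal and myoepithelial markers it was lowest at 2 and highest at 2. Its mean over that list was 7.80, against 8.01 to 8.51 in the other elevated calves. The basal keratin KRT5 stood at 8.08, against a median of 10.19 in the other calves. The part of the other cell types in its low E-cyclin values was not tested.

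**Figure D3:**
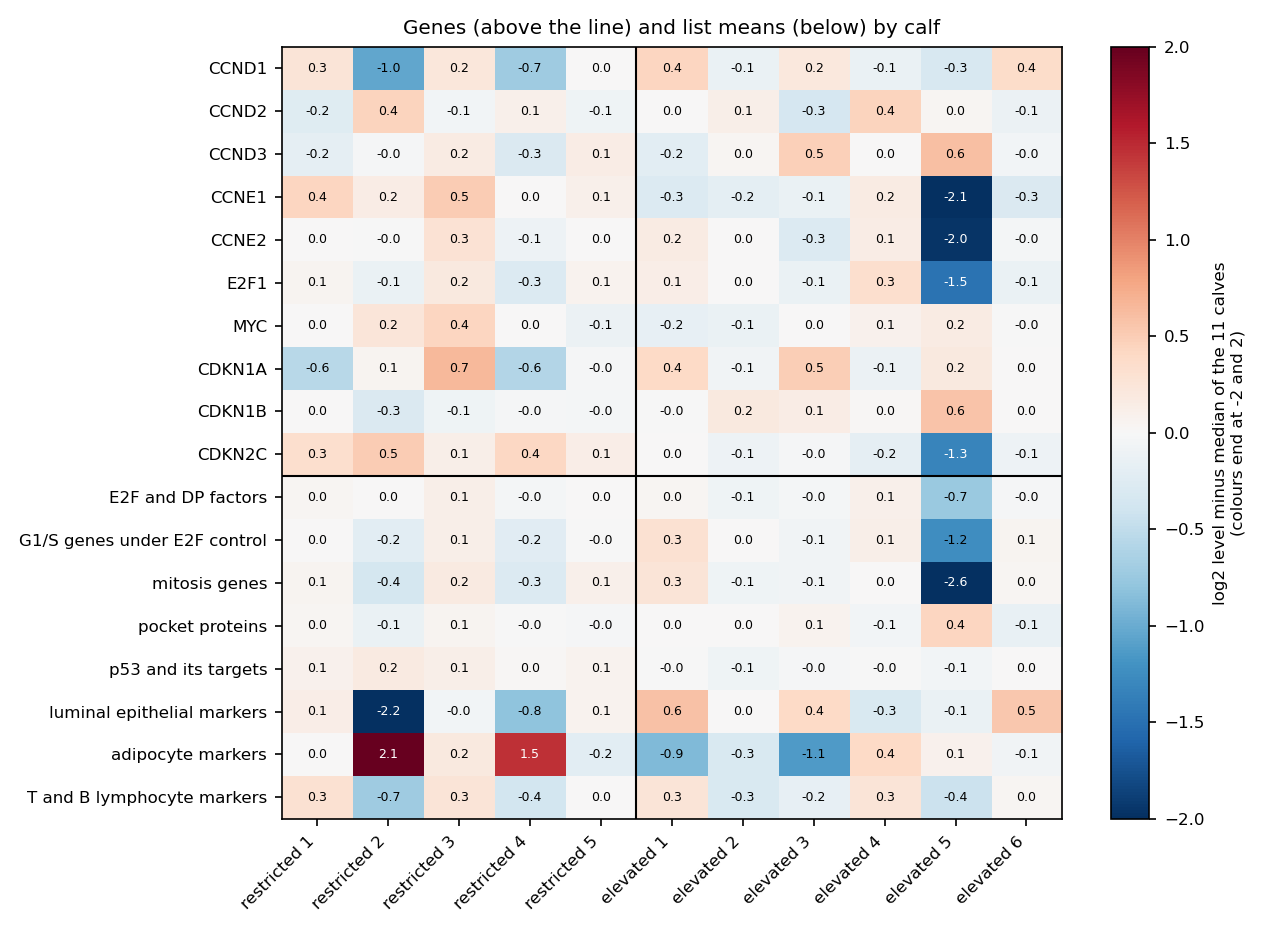
Log2 level of each gene (above the line) and mean of each gene list (below) in 11 calves, minus the median of the 11 calves, with restricted calves to the left. Colours end at -2 and 2; elevated 5 is low for CCNE1, CCNE2, E2F1, CDKN2C and the mitosis list, and restricted 2 and restricted 4 are low for CCND1 and luminal markers and high for adipocyte markers.

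Across the calves, CCND1 ran with the luminal epithelial markers. The 10 genes were set against the means of 4 marker lists and against each other, 85 relations in all, with permutation p adjusted over the 85. The values of a calf share 1 array. Basal and myoepithelial markers were not among the 4 lists, so whether a relation was particular to luminal cells was not tested. Their mean, like CCND1 and the luminal mean, was lowest in restricted 2 (7.22). CCND1 and the luminal mean had a Pearson r of 0.93 (adjusted permutation p = 0.0017) and a Spearman rho of 0.92 (adjusted permutation p = 0.0157) over 11 calves. Without restricted 2 and restricted 4 the r was 0.81, after removal of the group means 0.93, and among the 6 elevated calves alone 0.94. With the luminal mean as a covariate, the diet difference of CCND1 was -0.12, and with the adipocyte mean -0.17, neither past the threshold. CCND1 also ran against the adipocyte mean (r = -0.87, adjusted permutation p = 0.0220; rho = -0.65, adjusted permutation p = 0.215). Without restricted 2 and restricted 4 the r was -0.44, and among the 6 elevated calves alone it was -0.62. With the lymphocyte mean the r was 0.82 (adjusted permutation p = 0.0220) and rho 0.83 (adjusted permutation p = 0.0525), and 0.65 without elevated 5 and restricted 2.

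CCND2 leaned the other way. Its r with the luminal mean was -0.72 (adjusted permutation p = 0.0852; rho = -0.75, adjusted permutation p = 0.106) and -0.62 without restricted 2 and restricted 4, a relation that did not pass the adjustment. CCND3 and the luminal mean had an r of 0.15 and a rho of -0.073, also not past it. With the luminal mean as a covariate, the diet difference of CCND2 was 0.21, and with the adipocyte mean 0.26.

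E2F1 ran with CCNE2 over 11 calves (r = 0.97, adjusted permutation p = 0.0200; rho = 0.90, adjusted permutation p = 0.0157). It also ran with the mitosis mean (r = 0.96, adjusted permutation p = 0.0220; rho = 0.81, adjusted permutation p = 0.0594). Elevated 5 lay far from the rest in both. Over the other 10 calves, E2F1 and CCNE2 had an r of 0.77 and a rho of 0.87, and E2F1 and the mitosis mean an r of 0.66 and a rho of 0.75. None of these 4 values passed the adjustment over the 85 relations (adjusted permutation p of 0.153, 0.0833, 0.206 and 0.191). With the mitosis mean, CCNE1 had an r of 0.90 over 11 calves and 0.046 over these 10, none past the adjustment. CDKN2C had 0.81 and -0.53, also not past it. CCND1 and the mitosis mean had an r of 0.37 (adjusted permutation p = 0.513) and a rho of 0.83 (adjusted permutation p = 0.0525) over 11 calves. Only without elevated 5, a calf left out after seeing the data, did the r of CCND1 pass. It was then 0.89 (adjusted permutation p = 0.0349), with a rho of 0.81 (adjusted permutation p = 0.184). CDKN1B and CDKN2C ran against each other, with an r of -0.91 over 11 calves (adjusted permutation p = 0.0220; rho = -0.82, adjusted permutation p = 0.0525). Without elevated 5 the r was -0.70 and rho -0.77, neither past the adjustment, and without elevated 5 and restricted 2 the r was -0.48. After removal of the group means it was -0.85, and among the 6 elevated calves, elevated 5 included, -0.91.

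**Figure D4:**
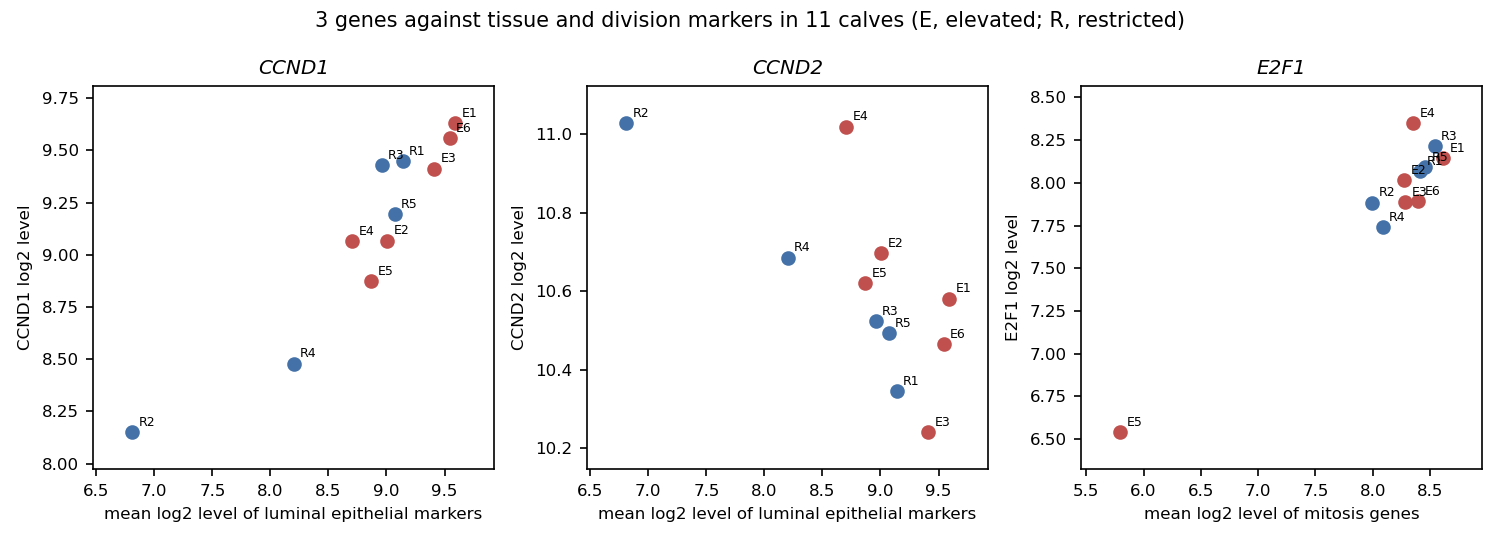
CCND1 and CCND2 against the mean log2 level of luminal epithelial markers, and E2F1 against that of mitosis genes, with 1 point per calf (red, elevated; blue, restricted). CCND1 climbs with the luminal mean (r = 0.93), CCND2 leans downward (r = -0.72), and elevated 5 lies alone at the lower left for E2F1.

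The genes most like each of the 10 were sought by Pearson r over the 11 calves among 10523 other genes with an above-median mean, and are given as a description. For CCND1 they were NEDD4L, a ubiquitin ligase gene (0.97), the potassium channel gene KCNK1 (0.97) and SERPINB5, the gene of the mammary serpin maspin (0.97). For CCND2 they were CDR2L (0.95), RASGRP3, an activator of RAS (0.94), and DHX29 (0.93). For CCND3 they were the zinc finger gene ZBTB16 (0.93), the histone demethylase gene KDM3A (0.92) and FKBP5, a co-chaperone of steroid receptors (0.91). For CDKN1A the values were lower, with NSUN5 (0.88), RCE1 (0.87) and SLC35A2 (0.87). For MYC they were MBLAC1 (0.91), LHX6 (0.90) and CDYL (0.87).

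For the genes with an extreme value in elevated 5, likeness to the genes named was lower without that calf, at 0.77 or above. The named genes had been picked for a high r with elevated 5 included, and they were not sought anew without it. The values without elevated 5 come from calves already used in that choice, so they cannot show whether the likeness holds without that calf. CCNE1 was most like E2F3 (0.99), the matrix proteoglycan gene VCAN (0.98) and RMI2 (0.97), and without elevated 5 these values were 0.93, 0.81 and 0.86. CCNE2 was most like DTL, MYBL2 and FANCD2 (0.99 each; 0.87, 0.84 and 0.80 without that calf), and E2F1 like the kinesin gene KIF18B, WDHD1 and RRM2 (0.98 each; 0.91, 0.88 and 0.87). CDKN2C was most like FTL, the ferritin light chain gene (0.96), the actin-branching subunit gene ARPC2 (0.96) and GTPBP10 (0.95), with 0.80, 0.77 and 0.80 without it. CDKN1B was most like SGMS1 (0.95), EEF2K (0.94) and UTRN (0.94), with 0.90, 0.89 and 0.82 without it. CCND3, also highest in elevated 5, had 0.88 with ZBTB16, 0.86 with KDM3A and 0.85 with FKBP5 without that calf.

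The other genes around the G1 to S step comprised 85 measured genes in 9 lists, of which 0 passed limma between the diets. At an unadjusted p under 0.05, 9 of them (10.6%) had lower and 0 had higher means in elevated calves. Of all probe sets, 5.33% were lower and 4.95% higher at that threshold, together 10.3%. Without elevated 5, the direction was mixed at that threshold, which 9.7% of all probe sets met. Higher were 1 of 8 E2F and DP factors and 2 of 16 genes under E2F control. Lower were 1 of 8 E2F and DP factors, 1 of 10 MYC network genes, 2 of 9 turnover genes and 3 of 13 p53 genes. Over all calves, 4 of 5 other CDK inhibitors had lower means in elevated calves (median log2 difference -0.24), as did 49.2% of all probe sets. Of these 5, 2 had an unadjusted p under 0.05. None of the 5 had one without elevated 5, and none without restricted 2. CDKN1C, the gene of p57, an imprinted inhibitor, differed by -0.64 ± 0.26 (SE; limma adjusted p = 0.437). It was highest in restricted 2 (10.66) and restricted 4 (10.26), and without both it differed by -0.25. CDKN2B differed by -0.24 and CDKN2A by -0.19. Among kinase genes the differences were small: CDK4 by -0.11 (-0.052 without elevated 5), CDK6 by -0.030 and CDK2 by -0.10 (-0.0077 without elevated 5, -0.17 without restricted 2), with none of the 8 kinases and activators at an unadjusted p under 0.05. CDC25A differed by -0.43, or -0.18 without elevated 5, and MNAT1, a subunit of the CDK-activating kinase, by 0.17.

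Among E2F and DP factors, 7 of 8 had lower means in elevated calves (median -0.14), but 4 of 8 without elevated 5. E2F5, a repressor that works with pocket proteins, differed by -0.24 ± 0.08 (SE; limma adjusted p = 0.376), and by -0.21 without elevated 5. E2F4 differed by -0.20 (-0.13 without restricted 2) and E2F3 by -0.52, the latter by -0.21 without elevated 5. RB1 and RBL2 differed by 0.098 and 0.030, and by 0.037 and -0.060 without elevated 5. Of genes under E2F control, 6 of 16 had higher means in elevated calves, and 14 of 16 without elevated 5, where 50.5% of all probe sets did. Their median was -0.068 with that calf and 0.14 without it. Without restricted 2 and restricted 4, 3 of 16 had higher means (median -0.10), beside 13726 of 26773 probe sets. Without these and elevated 5, 11 of 16 did (median 0.072), beside 13612 of 26773 probe sets. CDT1, which licenses origins, differed by 0.23 (0.37 without elevated 5), the polymerase gene POLA1 by 0.12 and TYMS, which makes thymidylate, by -0.15 (-0.025 without elevated 5). CCNA2 differed by -0.39, and by 0.094 without elevated 5. MKI67 and TOP2A differed by -0.30 and -0.51, and by 0.19 and 0.020 without elevated 5. Of 24 mitosis genes, 0 had higher means in elevated calves over all calves, and 21 without elevated 5. Without elevated 5, restricted 2 and restricted 4, 4 of 24 did (median -0.081).

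Among p53 and its targets, 10 of 13 had lower means in elevated calves (median -0.094), where 49.2% of all probe sets did, and 9 of 13 did so without elevated 5. An unadjusted p under 0.05 was found for 4 of 13, all lower, beside 5.33% of all probe sets, but for 2 of 13 without restricted 2 and 1 of 13 without restricted 2 and restricted 4. GADD45A, a stress gene whose product binds p21, had restricted values of 7.27, 8.03, 7.50, 7.54 and 7.54 and elevated values from 6.86 to 7.27. Its log2 difference was -0.52 ± 0.13 (SE; limma adjusted p = 0.269), with a narrow overlap, and -0.39 without restricted 2 and restricted 4. CCNG1, the cyclin G1 gene, differed by -0.29 ± 0.10 (SE; limma adjusted p = 0.372) and SESN2 by -0.29. MDM2, which marks p53 for destruction, differed by -0.081. CDKN1A, described above, had a higher mean in elevated calves, unlike most of this list.

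In the MYC network, MYCN had the lowest unadjusted p, with a log2 difference of -0.26 ± 0.08 (SE; limma adjusted p = 0.353). The antagonist gene MNT differed by 0.20 and MLX by -0.16 (-0.086 without restricted 2), and 8 of 10 genes of the list had lower means (median -0.025). Of growth genes driven by MYC, 6 of 14 had higher means, with ODC1, the first enzyme of polyamine synthesis, at -0.27 (-0.099 without elevated 5, -0.029 without restricted 2), WDR43 at -0.11 and NCL at 0.082. Among genes for the turnover of G1 regulators, SKP2, which marks p27 for destruction, differed by -0.36 ± 0.17 (SE; limma adjusted p = 0.490), and by -0.21 without elevated 5. The deubiquitinase gene USP28 differed by -0.20 and AMBRA1, which directs D-type cyclins to destruction, by 0.18.

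**Figure D5:**
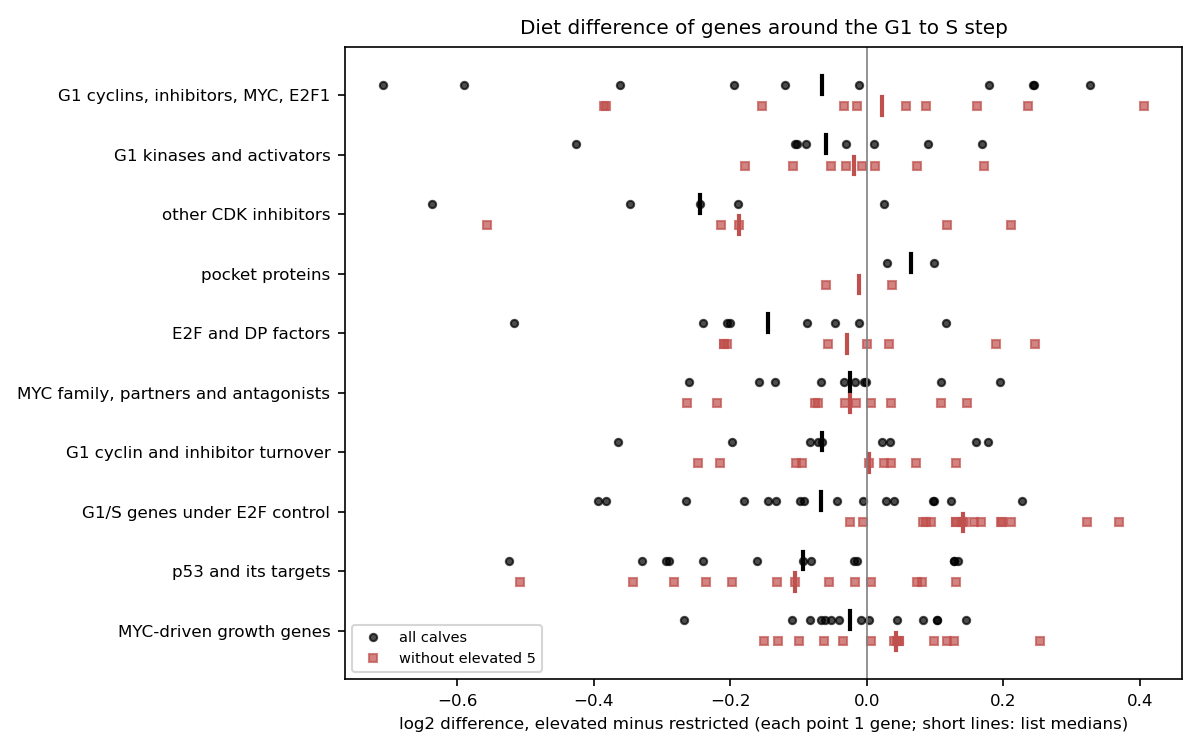
Log2 difference, elevated minus restricted (horizontal axis), of every measured gene in 10 lists, with 1 point per gene and short lines at list medians. Black circles use all calves and red squares leave out elevated 5; the genes under E2F control shift from a median of -0.068 to 0.14, and p53 and its targets stay below 0 at the median.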

How the data were processed

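RNA of mammary parenchyma from 11 separate calves was read on 1-colour arrays, per the labels' protocols, which give no batch. The authors deposited values made with RMA on a log2 scale, per the submitters' processing notes and the values themselves (1.08 to 14.20). The array definition, RMA settings and genome build were not stated, so no coordinates are printed. The number of arrays limits the precision. Of 26773 probe sets, 18790 had 1 symbol in the platform annotation, 385 several and 7598 none here.

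The main test was limma 3.58.1 (R 4.3.3) on the deposited values, unfiltered and without covariates, and p-values were adjusted by Benjamini-Hochberg across every probe set (threshold 0.05). It was checked on simulated data with independent noise in each probe set. No simulated array stood apart as 3 calves did here, so that situation was not checked. Permutation tests between groups used all 462 splits, and correlations 100000 permutations. Members and gene lists (219 of 228 genes measured) were chosen with earlier results of these data known. Named genes were the 10 members, up to 3 per G1 list with the smallest p, a fixed set of markers and regulators, and the 3 genes most like each member. E2F8 was named after its values were seen. Alternatives were other normalisations, a filter on dim probe sets, variance models, array weights, marker covariates, the replicate number as a block and left-out calves. List counts without elevated 5, restricted 2 and restricted 4 were chosen after seeing the data. Figures used matplotlib 3.10.9.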

Additional observations from a re-analysis of the deposited data

Results flagged for a closer look

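In 6 of 20 sets of values (10 genes in 2 groups), the most extreme calf stood so far from the next that its gap exceeded Dixon's critical value, where chance gives about 1 in 20. Of these 6, 5 were elevated 5. It was lowest among elevated calves at CCNE1 (5.26, the next at 7.06), CCNE2 (6.40, the next at 8.08), CDKN2C (6.44, the next at 7.59) and E2F1 (6.54, the next at 7.89). It was highest at CDKN1B (8.96, the next at 8.60). The other was CCNE2 of restricted 3, highest among restricted calves at 8.65 (the next at 8.37).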

How the results depend on the processing

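The count of passing genes among the 10 was 0 under every alternative run, with adjusted p between 0.287 and 0.994 in limma. Their number with higher means in elevated calves was 4 or 5. CCND3, CCNE1, CCNE2, CDKN1A, CDKN1B, CDKN2C and MYC kept their direction in all 22 refits. CCND1, 0.33 as reported, turned to -0.17 with the adipocyte and -0.12 with the luminal covariate, -0.091 without restricted 2 and restricted 4, and -0.012 without these and elevated 5. CCND2, -0.011 as reported, turned to 0.011 with quantile normalisation, 0.031 with array weights, 0.26 and 0.21 with the adipocyte and luminal covariates, 0.15 without restricted 2 and restricted 4 and 0.15 without these and elevated 5, and ran from -0.094 to 0.092 over left-out calves. E2F1 ran from -0.30 to 0.058 over left-out calves. The cause of these turns was not tested. Passing probe sets numbered 2 as reported, 0 to 12 over left-out calves, 1 among probe sets with 1 symbol, 4 with array weights, 10 with the luminal covariate, 25 without restricted 2 and restricted 4 and 15 without these and elevated 5. With the replicate number as a block, 0 passed and CCND2 stood at 0.017. The deviations of same-numbered calves correlated between -0.15 and 0.21, and 1 of 5 correlated best with its own number. These few values cannot settle whether the numbers mark a pairing. Each of the 10 genes had 1 probe set, so averaging probe sets gave no other value.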
